A study of Tursiops truncatus with 8 samples.

Results

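The comparison of solvent vehicles with plain culture medium rests on 3 of the 8 arrays of the series: 1 array of a dolphin skin slice kept in culture medium, 1 of a slice kept with methanol and 1 of a slice kept with ethanol. The arrays were chosen by their titles alone. Of the 24418 probes of the array, called features here, 17980 (73.6%) were well above background on all 3 arrays by the scanner software's own call, and these are the features compared.

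The skin came from a female bottlenose dolphin (Tursiops truncatus) that stranded on the coast of Tuscany. Slices of epidermis and dermis about 2 mm thick were incubated for 24 h at 24 to 28 °C, and 0.5 µg of RNA from each was labelled with Cy3. The medium slice had no addition, the methanol slice had the vehicle of the PFOA (perfluorooctanoic acid) cultures, and the ethanol slice had the vehicle of the BPA (bisphenol A) cultures. The solvent concentration is not given in the sources used here. The other arrays of the series, 2 of PFOA and 3 of BPA, are used only to show where their values lie, and the numbers in their titles (1 and 0.1 for PFOA, with the descriptions giving the opposite order, and 0.1, 1 and 100 for BPA) serve as names without a unit. There was 1 array per condition, so the differences between the 3 arrays have no replicate check. Medium and methanol lay on slide 1 and ethanol on slide 2, so that slide and ethanol cannot be told apart. In bulk tissue, fewer cells of a type and less RNA per cell cannot be told apart either.

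Methanol and ethanol are small alcohols used to bring poorly water-soluble compounds into a culture medium. Mammalian tissues oxidise both through alcohol and aldehyde dehydrogenases, ethanol to acetaldehyde and acetate and methanol to formaldehyde and formate. An organ culture of skin keeps keratinocytes, fibroblasts, vessels and resident immune cells together, so a reading is a mixture over all of them. A vehicle control is meant to carry whatever the solvent itself does.

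Few features carry a gene name. Of the 17980 features, 16208 carried the name of an assembled contig and 1719 that of a single read, while 42 had a GI number and 11 a gene name. The array named 0 of 14 alcohol metabolism genes looked for, 0 of 18 stress response genes, 2 of 11 hypoxia genes and 10 of 11 lung surfactant and airway genes. Of the cell type markers looked for, it named 0 of 14 for keratinocytes, 0 of 6 for fibroblasts, 1 of 4 for endothelium (CDH5), 0 of 6 for melanocytes, 0 of 4 for adipocytes, 0 of 8 for immune cells, 0 of 4 for muscle and pericytes and 5 of 5 for lung epithelium, so the makeup of the slices could not be read from markers of skin. Features named for reads are given by their probe number.

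The 3 arrays were of like brightness and spot scatter. The 75th percentile of processed signal, by which each array was scaled, was 620 on medium, 696 on methanol and 592 on ethanol, and no spot was saturated. Between 75.7% and 78.0% of features were well above background on each. Most features were spotted in duplicate, and the median SD between spots of a feature was 0.077 log2 units on medium, 0.062 on methanol and 0.067 on ethanol. Per the file headers, the median coefficient of variation lay between 3.86% and 6.55%, and the software's quality summary was in range for medium and methanol but not for ethanol. Across the 17980 features, which are not independent replicates, methanol and medium correlated with r = 0.994, ethanol and medium with r = 0.990 and ethanol and methanol with r = 0.988. The labelling spike-ins, viral E1A transcripts added in fixed amounts, did not line up with the 75th percentile. Relative to it, the median of the 7 spike-ins well above background on all 8 arrays lay 0.15 log2 units higher on methanol than on medium (range -0.015 to 0.24) and differed by -0.31 on ethanol (range -0.48 to -0.12). Spike-in scaling was therefore tried as the mean log2 level of the 7 (7-spike scaling) and as their median level, which on each array is the level of 1 spike-in alone (1-spike scaling).

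Methanol was compared with medium to see what that vehicle alone went with. Most features read nearly alike, with 93.2% within 1.5-fold, a median difference of 0.0026 log2 units and an SD of 0.30. The tails were unequal: 273 features (1.52%) read at least 2-fold lower on methanol and 15 (0.0834%) at least 2-fold higher. The lowest 1% of differences lay below -1.09 and the highest 1% above 0.51 log2 units. With 7-spike scaling, which moved the median of all features to -0.13, the counts were 450 lower and 11 higher, and with 1-spike scaling (median -0.24) they were 639 and 7. In limma's test over the 8 arrays, where medium, methanol and ethanol were assumed to vary like the PFOA and BPA arrays, 0 of 17980 features (0%) passed an adjusted p of 0.05 for methanol against medium, the smallest adjusted p being 0.389, and 433 (2.41%) had p below 0.05 before adjustment.

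Ethanol against medium gave a wider body and similar counts in the tails. Of all features 89.0% were within 1.5-fold, and the differences had a median of 0.0019 log2 units and an SD of 0.38. On ethanol 213 features (1.18%) read at least 2-fold lower and 33 (0.184%) at least 2-fold higher. This split depended on scaling: it was 126 lower and 54 higher with median scaling, 147 and 72 with quantile normalization and 167 and 60 with cyclic loess. With 7-spike scaling, which moved the median of all features to 0.31, it turned to 40 lower and 181 higher, and with 1-spike scaling (median 0.36) to 33 and 254. The lowest 1% lay below -1.02 and the highest 1% above 0.70. Limma passed 0 of 17980 features (0%), the smallest adjusted p being 0.987, and 535 (2.98%) had p below 0.05 before adjustment. Past the 2-fold line the counts thinned quickly. For methanol 209 features lay between 1.8-fold and 2-fold and 127 between 2-fold and 2.2-fold, and for ethanol 301 and 120.

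Where in the range of signal these features lay differed between the directions. Among the brightest level group, 1 of 3 of equal size, with a median signal of 1606, 95 read at least 2-fold lower on methanol and 0 higher, and 55 read lower on ethanol and 3 higher. In the middle group, median signal 251, methanol gave 55 lower and 1 higher and ethanol 28 and 3. In the dimmest group, median signal 35.3, methanol gave 123 lower and 14 higher and ethanol 130 and 27. Nearly all higher readings were therefore of dim features, 14 of 15 on methanol and 27 of 33 on ethanol.

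**Figure D1:**
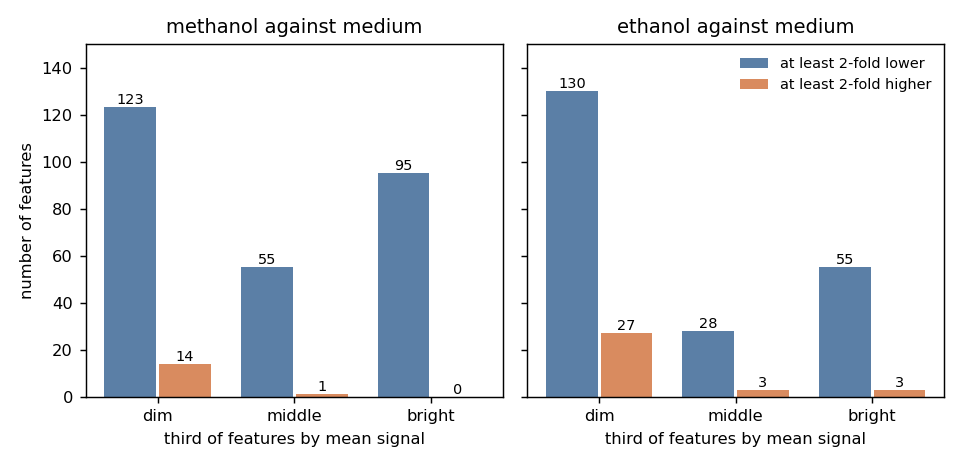
Number of features at least 2-fold lower (blue) or higher (orange) than medium on methanol (left) and ethanol (right), by level group of mean signal over the 3 arrays (5993 or 5994 features in each). Lower readings outnumber higher ones in every group, and the bright group holds 95 lower and 0 higher on methanol.

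Both comparisons use the 1 medium array, so a feature that happens to read high there is counted as lower on both solvents. To treat the 3 arrays alike, a feature was assigned to an array that stood at least 2-fold above both others or 2-fold below both others. Medium stood apart from both solvents for 54 features, higher for 53 (0.295%) and lower for 1 (0.00556%). Methanol stood apart for 60 features, higher for 8 (0.0445%) and lower for 52 (0.289%), and ethanol for 85, higher for 22 (0.122%) and lower for 63 (0.350%). The 53 shared lower features were 19.4% of those lower on methanol and 24.9% of those lower on ethanol. The rest were not all of 1 solvent only. Of the 273 lower on methanol 168, and of the 213 lower on ethanol 97, belonged to neither class. In these the other solvent lay in between, less than 2-fold from medium and less than 2-fold from the lower solvent. Between the solvents themselves, ethanol read at least 2-fold above methanol for 217 features (1.21%) and below for 181 (1.01%), and limma passed 0 of 17980 (0%) for ethanol against methanol, the smallest adjusted p being 0.492, and 865 (4.81%) had p below 0.05 before adjustment. The split was 273 and 118 with median scaling and 1283 and 20 with 7-spike scaling (2510 and 12 with 1-spike scaling), and it turned at 1.5-fold (1147 and 1624).

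**Figure D2:**
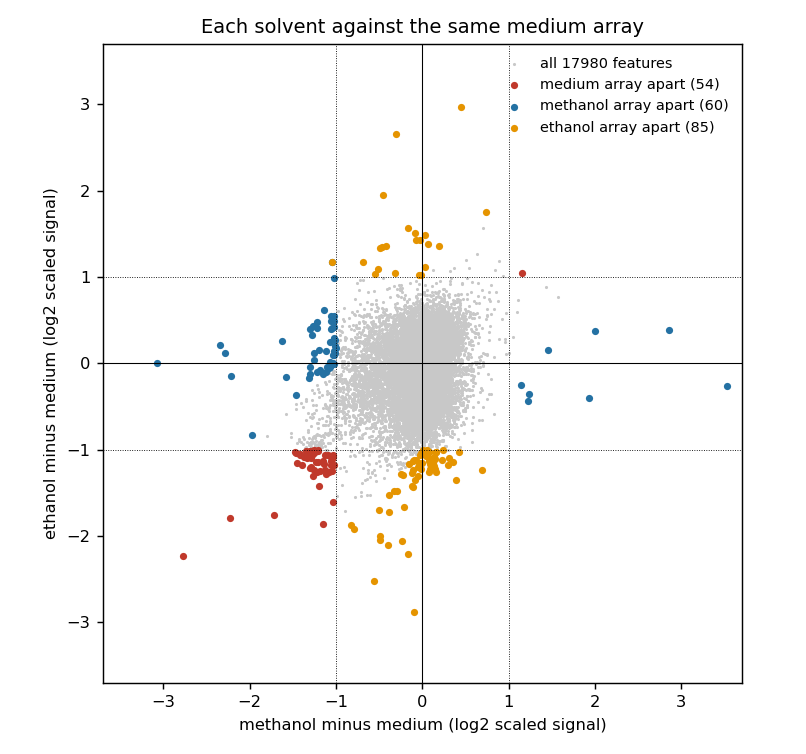
Log2 difference of each feature between methanol and medium (horizontal) and between ethanol and medium (vertical), with dotted lines at 2-fold. Features on which one array stood apart from both others are coloured: medium for 54 (lower left, and 1 at upper right), methanol for 60 and ethanol for 85.

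The counts of features apart moved with scaling. Medium stood apart with 46 higher and 7 lower features under quantile normalization and 10 and 3 with 7-spike scaling (12 and 2 with 1-spike scaling). Ethanol stood apart with 32 higher and 41 lower when scaled by the median, 38 and 43 after quantile normalization, 35 and 41 after cyclic loess and 121 and 9 with 7-spike scaling (203 and 5 with 1-spike scaling). Methanol stood apart with 6 and 218 with 7-spike scaling (4 and 419 with 1-spike scaling). With every spot of a feature required to be 2-fold apart, 22 features remained in number for medium, all higher, 24 for methanol, 5 higher and 19 lower, and 40 for ethanol, 11 higher and 29 lower.

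The features that read lower with both solvents were mostly bright ones. Of the 53, 31 were in the bright group and 14 in the dim group, against 44 dim of 52 for methanol lower and 48 dim of 63 for ethanol lower. Their median signal was 1981 on medium, 901 on methanol and 905 on ethanol. The size was small: the smaller of the 2 differences had a median of 1.07 log2 units, and 1 feature passed 4-fold on both. Spots agreed for 36 of the 37 features that had at least 2 spots, every medium spot lying above every spot of the solvents. The means of these same spots chose the features, so the count is no separate support for them.

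Contig-c8766-1 was the brightest of the leading features, with a signal of 28377 on medium, 13897 on methanol and 10104 on ethanol. After scaling the differences from medium were -1.20 log2 units on methanol and -1.42 on ethanol, against an SD between its spots of 0.17, 0.09 and 0.17 on medium, methanol and ethanol. Contig-c3508-1 read 18323 on medium, 8327 on methanol and 7526 on ethanol, differences of -1.30 and -1.22 after scaling. Contig-c7119-1 read 6333, 2959 and 2446 in the same order (-1.26 and -1.30), and Contig-c21580-1 read 6080, 2588 and 2560 (-1.40 and -1.18). In these 4 contigs the solvents lay at most 0.23 log2 units apart. The scatter between spots is within 1 array and says nothing of the spread between slices, which was not measured. None of them passed limma's test of the mean of both solvents against medium, which passed 0 of 17980 features (0%), the smallest adjusted p being 0.425, and 325 (1.81%) had p below 0.05 before adjustment.

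The 2 features farthest apart in the shared class had single spots. Contig-c23936-1 read 123 on medium, 20.2 on methanol and 25.1 on ethanol, differences of -2.77 and -2.23. The feature of probe AM-32977 read 132, 31.6 and 36.4 (-2.23 and -1.79). Both were also low on all 5 exposed arrays, between 17.4 and 22.4 for the contig and between 16.4 and 36.5 for AM-32977, so that medium was the 1 high array of 8. They have 1 spot each, which leaves a single bright spot on medium without a second reading. Limma gave an adjusted p of 0.425 for each with the mean of both solvents, and with 7-spike scaling 0.00899 for the contig. In the 7-spike fit all features had the same standard error. Dim duplicates were less clear. Contig-c15820-1 read 19.2 on medium, 9.47 on methanol and 7.69 on ethanol with a spot SD of 0.54 on ethanol, and Contig-c12377-1 read 65.5, 33.1 and 17.2 but 86.9 at BPA 0.1, above medium.

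The 1 feature that read higher with both solvents, Contig-c15740-1, was dim, with a signal of 4.66 on medium, 11.7 on methanol and 9.20 on ethanol, and its spots overlapped. It was chosen for mention after its values were seen.

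**Figure D3:**
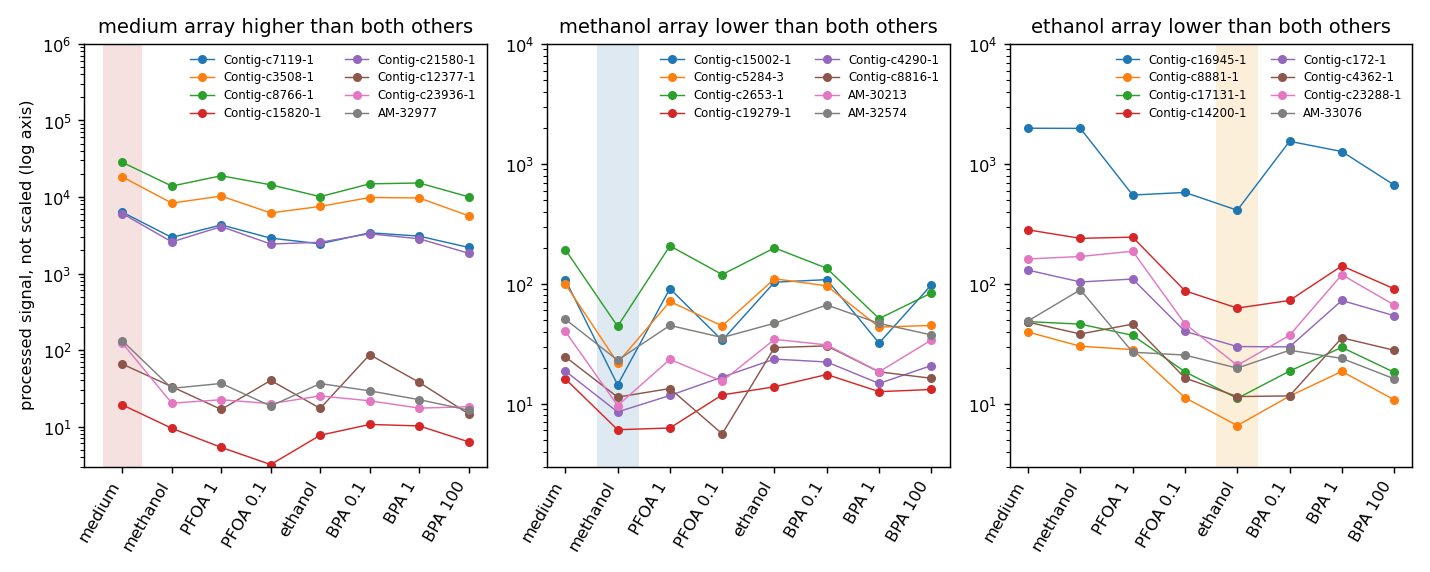
Processed signal before scaling, on a log axis, of the leading features on all 8 arrays, for medium higher than both solvents (left), methanol lower than both others (middle) and ethanol lower than both others (right); the shaded array is the one that stood apart. Contig-c3508-1 reads 18323 on medium and 5686 to 10271 elsewhere, and Contig-c2653-1 reads 44.2 on methanol and 51.3 at BPA 1.

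The 52 features lower on methanol than on both medium and ethanol were mostly dim, with a median signal of 29.7 on medium, 13.9 on methanol and 34.1 on ethanol. The 3 farthest apart were brighter. Their spots agreed by choice, since features with at least 2 spots were named only where every spot lay on one side. Contig-c15002-1 read 108 on medium, 14.4 on methanol and 103 on ethanol, a difference of -3.08 log2 units from medium on methanol and of 0.00025 on ethanol, with spot SDs of 0.25, 0.10 and 0.12. Contig-c5284-3 read 99.6, 21.96 and 110 (-2.35 on methanol, limma adjusted p = 0.502). Contig-c2653-1 read 193, 44.2 and 199 (-2.29 on methanol). For methanol against medium, limma's adjusted p of Contig-c15002-1 was 1.00, but 0.00453 with 1-spike and 6.4e-05 with 7-spike scaling, fits in which all features had the same standard error; with 7-spike scaling limma's adjusted p was 0.0278 for Contig-c5284-3 and 0.0368 for Contig-c2653-1. Methanol was the low array of the 3 by at least 4-fold in each, and ethanol lay within 0.22 log2 units of medium. At BPA 1, a culture of the ethanol vehicle, the 3 contigs differed from medium by -1.52, -0.95 and -1.67. On PFOA titled 1, a culture of the methanol vehicle, they differed by -0.33, -0.57 and 0.018, and on PFOA titled 0.1 by -1.04, -0.53 and -0.057. At BPA 0.1 the differences were -0.18, -0.23 and -0.70, and at BPA 100 they were 0.54, -0.46 and -0.52. The others were nearer background: Contig-c8816-1 read 24.6, 11.4 and 29.4, Contig-c4290-1 18.7, 8.55 and 23.6, and Contig-c19279-1 16.1, 6.08 and 13.9 with a spot SD of 0.95 on methanol.

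Most of the features higher on methanol than on both other arrays rested on single spots. Contig-c25460-1 read 17.9 on medium, 231 on methanol and 14.2 on ethanol, a difference of 3.52 log2 units from medium, and the feature of probe AM-32732 read 29.1, 236 and 36.4 (2.86, limma adjusted p = 0.389). On the PFOA arrays, which belong to the same vehicle, the contig read 9.78 and 2.94 and AM-32732 read 31.4 and 23.5. After scaling the contig lay 0.96 and 1.97 below medium there (differences of -0.96 and -1.97) and AM-32732 0.02 and 0.32 above it. Only 3 of the 8 features higher on methanol had at least 2 spots, and in 1 of them, Contig-c15343-1, every methanol spot lay above all others. It read 26.9, 71.2 and 20.1, with a spot SD of 0.93 on methanol.

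In 51 of the 51 features lower on ethanol with at least 2 spots, every ethanol spot lay below every spot of medium and methanol. The same held for methanol in 31 of the 38 such features lower on methanol. The means of these same spots chose the features, so the counts are no separate support for them. Contig-c16945-1 was the brightest of the leading ones, with 1985 on medium, 1978 on methanol and 411 on ethanol, a difference of -2.20 log2 units from medium on ethanol and -0.17 on methanol, with spot SDs of 0.042, 0.00046 and 0.092. Contig-c14200-1 read 282, 240 and 62.8 (-2.10), and Contig-c172-1 read 130, 104 and 30.01 (-2.05). Contig-c8881-1 read 39.6, 30.2 and 6.58 (-2.52), Contig-c17131-1 48.4, 46.2 and 11.1 (-2.06) and Contig-c4362-1 47.9, 38.2 and 11.5 (-1.99). Methanol lay within 0.56 log2 units of medium in these 6 contigs. Contig-c16945-1 was also low on PFOA titled 1 and 0.1, with 550 and 578 (-1.94 and -1.15 from medium), whose vehicle was methanol, while the BPA arrays, whose vehicle was ethanol, lay nearer medium, with 1544, 1269 and 667 at BPA 0.1, 1 and 100 (-0.54, -0.41 and -0.89). With normexp, whose offset shrinks differences of dim features, the difference of ethanol from the mean of the other arrays went from -2.24 to -0.44 for Contig-c8881-1, from -1.94 to -0.57 for Contig-c17131-1, from -1.75 to -0.41 for Contig-c4362-1 and from -1.80 to -0.83 for Contig-c172-1. Of the 35 features named for standing apart, 18 were under 2-fold with normexp, and these 18 were among the 26 dim ones; the 6 bright ones shrank by a factor of 1.02 to 1.17. Contig-c23288-1, with 1 spot, read 161, 169 and 20.9, the farthest below medium of all features on ethanol (-2.88). None of these passed limma's test in the reported fit. With 7-spike scaling Contig-c23288-1 passed limma's test with an adjusted p of 0.0203, in a fit where all features had the same standard error. That was 0.55, against 0.89 for this contig in the reported fit.

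Of the 22 features higher on ethanol, 16 were dim. The brightest was Contig-c24825-1, which has 1 spot and read 2530 on medium, 3881 on methanol and 18856 on ethanol, a difference of 2.97 log2 units from medium. It was above medium on each BPA array too, with 6269, 10286 and 4152 at BPA 0.1, 1 and 100, and on the PFOA arrays titled 1 and 0.1, with 8003 and 2433 before scaling, or 1.58 and 0.58 above medium after it. Medium was thus the lowest of the 8 arrays for this contig after scaling. Its limma adjusted p for ethanol against medium was 0.987, but 0.00234 with normexp, 0.00648 with 1-spike and 6.6e-05 with 7-spike scaling. In both spike-in fits all features had the same standard error. AM-29700, also with 1 spot, read 51.4, 46.8 and 309 and was between 22.8 and 64.5 on the 5 exposed arrays, so ethanol was the 1 high array. Contig-c17259-1, with 2 spots, read 75.2, 74.95 and 214 (1.57 above medium, spot SD of 0.25 on ethanol).

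The exposed arrays show where these features lay in cultures with the same vehicle and with the other. For the 53 features higher on medium, the median difference from medium was -1.25 on methanol and -1.13 on ethanol, and on the exposed arrays it was -0.63 and -0.50 on PFOA titled 1 and 0.1 and -1.07, -0.68 and -0.85 at BPA 0.1, 1 and 100. All of these share the medium array. Over all features the same medians lay between -0.053 and 0.0026. For the 52 features lower on methanol, the median difference from medium was -0.53 on PFOA titled 1 but 0.02 on PFOA titled 0.1, against 0.07, -0.0024 and 0.24 on the BPA arrays. For the 63 lower on ethanol it was -0.51, -0.18 and -0.46 on the BPA arrays, and -0.44 and -0.43 on the PFOA arrays, which did not belong to ethanol. The medium reading helped choose both of these classes as well. Differences from medium therefore cannot show how far the readings recurred.

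**Figure D4:**
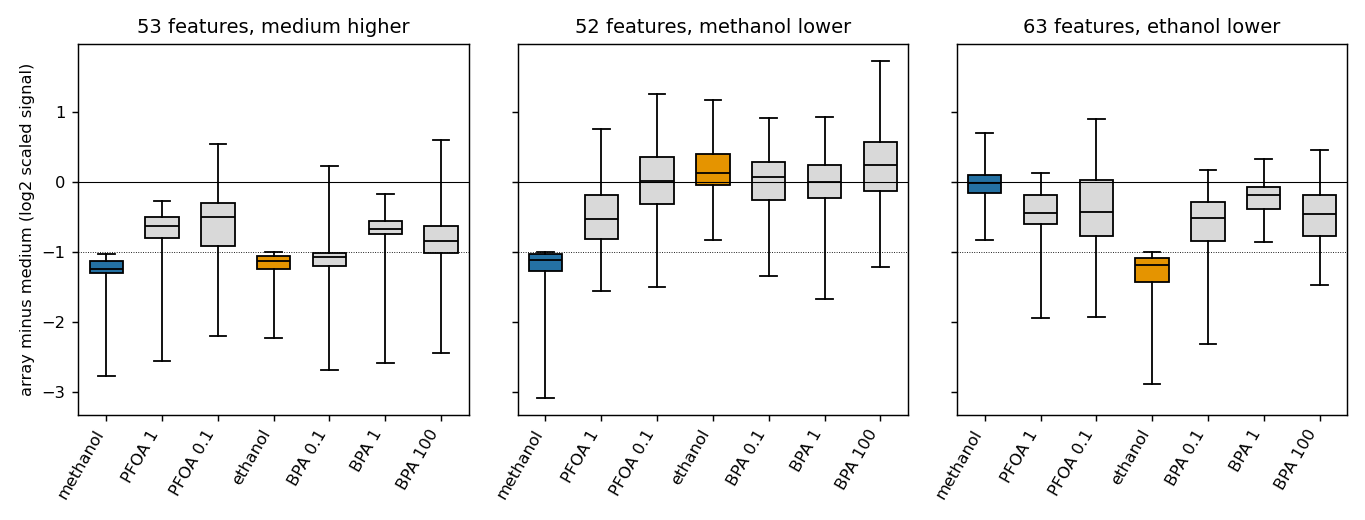
Log2 difference from medium on each of the other 7 arrays for the 53 features higher on medium (left), the 52 lower on methanol (middle) and the 63 lower on ethanol (right). Boxes span the quartiles with the median, whiskers the full range; methanol is blue, ethanol orange and exposed arrays grey. In the middle panel the PFOA 1 median is -0.53 and that of PFOA 0.1 is 0.02.

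A comparison free of the 3 arrays that chose the features is PFOA against BPA, the cultures of the methanol and of the ethanol vehicle, though compound and slide differ between them as well. Of the 52 features lower on methanol, 40 (76.9%) were lower in the mean of the PFOA arrays than in the mean of the BPA arrays, with a median of -0.28 log2 units, against 51.7% and -0.011 over all 17980 features. The median rested on 1 array: 28 of the 52 were lower without PFOA titled 1, a median of -0.062, and 41 without PFOA titled 0.1, a median of -0.53. PFOA titled 0.1 had the widest scatter between spots (median SD 0.26). The 8 features higher on methanol ran against their direction on methanol, with all 8 lower on PFOA than on BPA (median -0.34). Of the 63 lower on ethanol, 33 were higher on PFOA than on BPA, and 30 (47.6%) lower against 51.7% of all features, a share near the background; 36 were lower without PFOA titled 0.1, 41 without BPA 0.1 and 24 without BPA 1. Of the 22 higher on ethanol, 14 were lower on PFOA. The 53 higher on medium, a class not set by either vehicle alone, were skewed too. Of these, 10 (18.9%) were lower on PFOA than on BPA and 43 higher, with a median of 0.26. The source of these skews was not tested. No feature passed limma's test of PFOA against BPA (0 of 17980, 0%, 889 having p below 0.05 before adjustment).

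Some features had 1 spot or were named for a read. Features with 1 usable spot on at least 1 of the 3 arrays were 3410 of 17980 (19.0%), and 16 of the 53 higher on medium, 14 of the 52 lower on methanol, 5 of the 8 higher on methanol, 8 of the 22 higher on ethanol and 12 of the 63 lower on ethanol. Features named for single reads were 9.56% of all, and 8 of 53, 10 of 52, 1 of 8, 3 of 22 and 2 of 63 in the same order. A feature with 1 spot has no second reading, so these counts stand beside the classes without a test.

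Features outside the filter were seen on some of the 3 arrays only. Medium alone was well above background for 478 features, methanol alone for 325 and ethanol alone for 250, and 95, 48 and 90 of these were at least 2-fold above the limits of both other arrays (on each array, whichever was higher of the feature's reading and the dimmest reading that counted as detected). Of 410 features seen on medium and methanol but not on ethanol, 88 were at least 2-fold above that limit and 3 at least 4-fold. Of 77 seen on both solvents but not on medium, 7 were at least 2-fold above it and 0 at least 4-fold. Of 187 features seen on medium and ethanol but not on methanol, 57 were at least 2-fold above the limit and 8 at least 4-fold. Contig-c375-1 was one, at 104 on medium and 72.0 on ethanol but 7.29 on methanol, so at least 11.6-fold higher, and Contig-c9174-1 another, at 53.9, 37.99 and 2.03, at least 12.7-fold higher. Contig-c10103-1 read 32.1, 35.8 and 2.54 (at least 10.2-fold higher). The 4 largest of these 8 features past 4-fold included 1 with a single spot, AM-33378, which read 33.4 on medium, 32.6 on ethanol and 3.48 on methanol and was at 2.67 or less on all exposed arrays.

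Among the genes that the array names, HIF1a, the oxygen-regulated subunit of the hypoxia-inducible transcription factor, was the brightest and the one on which both probes and all spots agreed. Its first probe read 142 on medium, 186 on methanol and 106 on ethanol, or 1.17-fold of medium on methanol and 0.787-fold on ethanol after scaling, and its second probe 100.1, 136 and 70.9, or 1.21-fold and 0.743-fold. No spot of one array overlapped with those of another in either comparison with medium, and spot SDs were 0.16 log2 units or less. Scaling changed the sizes: with 7-spike scaling the first probe gave 0.097 log2 units on methanol and -0.040 on ethanol and the second 0.14 and -0.12. With 1-spike scaling the first probe turned (-0.013 and 0.013) and the second did not (0.030 and -0.072). HIF2a, a second such subunit known from endothelium, read 35.6, 35.3 and 21.2 (0.884-fold and 0.625-fold), and its methanol spots overlapped with those of medium.

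SFTPC, AbcA3 and CC10 belong to lung: a surfactant protein, the lipid transporter of surfactant vesicles and a secreted airway protein. SFTPC read 30.4 on medium, 17.6 on methanol and 26.3 on ethanol (0.516-fold and 0.908-fold). Its methanol spots lay below those of medium, whereas the ethanol spots overlapped with them. The AbcA3 probe with the brightest signal read 34.5, 23.2 and 35.3 (0.599-fold and 1.07-fold) and its second probe 10.4, 9.27 and 8.70 (0.796-fold and 0.879-fold). On ethanol these AbcA3 probes lay on opposite sides of medium, but the spots of each overlapped with those of medium, so neither gave a clear direction. The CC10 probe that passed the filter read 8.53, 12.7 and 8.90 (1.33-fold and 1.09-fold), with a spot SD of 0.67 on methanol. The other CC10 probe went the other way but was well above background on medium only. It read 16.1 on medium, 7.01 on methanol and 10.2 on ethanol, and no solvent spot overlapped with those of medium.

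AQP5 is a water channel of secretory epithelia and MUC1 a cell surface mucin. Their probes disagreed in direction with 1 solvent each, methanol for AQP5 and ethanol for MUC1. The first AQP5 probe read 46.2, 54.9 and 59.7 (1.06-fold and 1.35-fold) with spot SDs of 1.27, 1.77 and 0.49. The second read 24.5, 16.6 and 30.1 (0.603-fold and 1.29-fold). On ethanol both AQP5 probes thus read above medium, with spots that overlapped those of medium. For MUC1 the brighter probe read 53.6, 48.1 and 36.2 (0.799-fold and 0.708-fold) and the dimmer 16.5, 11.5 and 20.6 (0.622-fold and 1.31-fold). On ethanol the MUC1 probes thus lay on opposite sides of medium, each with spots clear of those of medium.

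**Figure D5:**
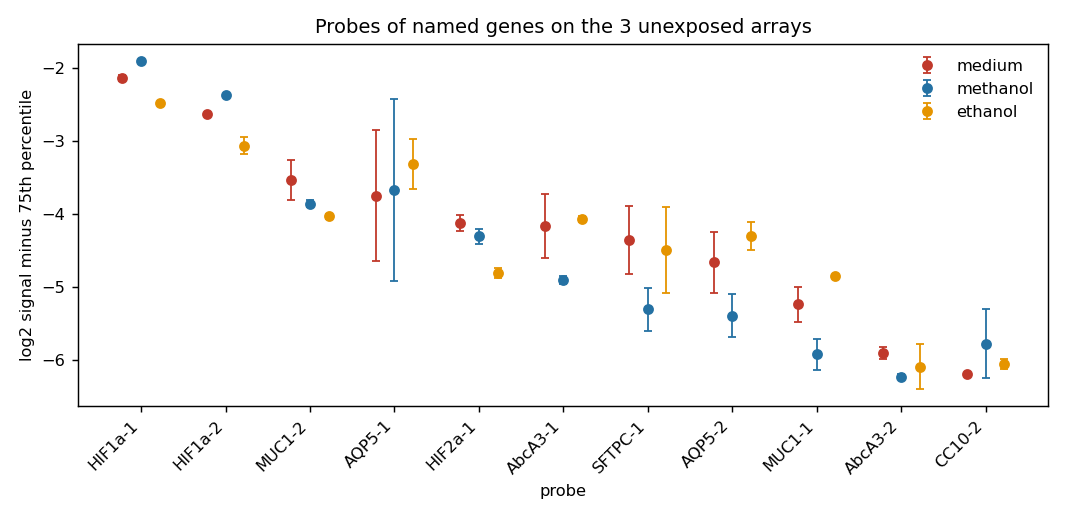
Log2 signal minus the 75th percentile of the array for the 11 gene probes that passed the filter, ordered by signal on medium. Points are means over the 2 spots and bars reach the lower and the higher spot; the HIF1a probes separate the arrays, and the AQP5-1 spots overlap on all 3.

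Taking the 11 probes of 7 genes together, 7 read below medium on methanol and 6 on ethanol, 4 on both. Of the 11, 0 were 2-fold apart from medium with either solvent, against 1.60% and 1.37% of all features. Between the solvents, the second AQP5 probe and the dimmer MUC1 probe read 2.13-fold and 2.11-fold higher on ethanol than on methanol. Of all features, 2.21% were at least 2-fold apart between the solvents. The median difference of the 11 probes from medium was -0.32 log2 units on methanol and -0.14 on ethanol. Over all features it was 0.0026 and 0.0019, and over the dim group of features -0.073 and -0.12. Limma's adjusted p was between 0.968 and 1.00 for these probes in the 3 comparisons. The other 6 genes were below the filter. FOXF1, a transcription factor of mesenchyme, was well above background on medium only, by both probes, and NKX2-1, a transcription factor of lung and thyroid, on medium and ethanol. None of the 3 arrays detected SFTPB, SFTPA1, PDPN or CDH5, whose probes had signals of 1.62 to 5.18.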

How the data were processed

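Spot intensities came from Agilent Feature Extraction 10.7.3.1, which per the file headers took off background and flattened spatial gradients array by array; the deposited intensity carries no scaling between arrays. The series' deposited value table holds the same values multiplied by 1000000 and rounded, treated as a score and used as an alternative. Groups came from sample titles. Control and outlier-flagged spots were left out, log2 signal was reduced by the array's 75th percentile, and a probe's spots were averaged; a probe counted as detected where no fewer of its spots were well above background than not. Single-array differences were counted at 2-fold with no test. Limma 3.58.1 in R 4.3.3 (lmFit, eBayes, Benjamini-Hochberg, threshold 0.05) was fitted on all 8 arrays in 5 classes with 3 residual degrees of freedom, the spread between doses of PFOA and of BPA; it and the counting were tested on simulated data. Spike-in scaling centred arrays on the E1A probes. Normexp, with an offset of 50, used the median spot signal, since a mean is not among the columns. Named features were the 6 farthest apart per class with spots on one side, then the 2 with 1 spot, and all named genes. Members and lists were chosen with earlier results of these data known. The labels name no separate animals, so p-values reflect spread among cultures that may be technical, and the number of arrays limits the precision.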

Additional observations from a re-analysis of the deposited data

Results flagged for a closer look

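Contig-c19254-1 (2 spots) was the 1 feature at least 2-fold from medium in opposite directions with the 2 solvents. Its signal was 66.4 on medium, 36.0 on methanol and 143 on ethanol, a difference from medium of -1.05 log2 units on methanol and 1.17 on ethanol. Ethanol lay 2.22 log2 units above methanol (limma adjusted p = 0.968, so the difference between the solvents did not pass). The SD between its spots was 0.86 on medium, 1.15 on methanol and 0.29 on ethanol, so the medium and methanol values are uncertain. It read 141, 95.2 and 137 at BPA 0.1, 1 and 100, and 44.8 and 56.6 on PFOA titled 1 and 0.1. The difference between the solvents was 2.82 with 1-spike scaling (limma adjusted p = 0.0344) and 2.66 with 7-spike scaling (limma adjusted p = 0.00359), fits in which all features had the same standard error.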

How the results depend on the processing

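Counts at 2-fold depended on most choices; for results that moved, the cause was not tested. In the order methanol against medium, ethanol against medium, ethanol against methanol, the totals were 646, 287 and 2522 with 1-spike scaling, 461, 221 and 1303 with 7-spike scaling (chosen after seeing the data), 116, 69 and 65 with normexp, 1245, 1301 and 1506 without the filter on dim probes, 152, 94 and 116 with brighter features only, 1224, 1977 and 2771 at 1.5-fold, 14, 22 and 43 at 3-fold, and 155, 122 and 213 with every spot 2-fold apart. The direction of the majority turned for ethanol against medium with both spike-in scalings and for ethanol against methanol at 1.5-fold and with brighter features only. Features with medium, methanol or ethanol apart numbered 14, 423 and 208 with 1-spike scaling, 13, 224 and 130 with 7-spike scaling, 22, 7 and 15 with normexp, 400, 404 and 578 without the filter, 316, 544 and 1123 at 1.5-fold, 3, 9 and 8 at 3-fold, and 22, 24 and 40 with every spot apart. Median scaling gave 30 for medium, quantile normalization 37 for methanol, and brighter features only 9 for methanol and 22 for ethanol. The majority turned for ethanol apart with both spike-in scalings and without the filter. Limma passed 3 features for methanol against medium, 2 for ethanol against medium and 8 for ethanol against methanol with 1-spike scaling, and 1 and 2 for the latter pair with normexp. With 7-spike scaling it passed 8, 3 and 13, and 1 for both solvents against medium. In the spike-in fits every feature had the same standard error within a contrast (0.65 and 0.55 for a pair of arrays), against 0.30 to 1.78 in the reported fit. The smallest adjusted p over 16 alternatives of each limma contrast ranged from 1.7e-05 to 1.00, from 6.6e-05 to 0.999, from 4.2e-06 to 0.864 and, for both solvents against medium, from 0.00899 to 1.00. Among gene probes, 7-spike scaling turned AQP5-1 on methanol (-0.051), AbcA3-2 on ethanol (0.12) and SFTPC-1 on ethanol (0.17), and 1-spike scaling turned AQP5-1 on methanol (-0.16), AbcA3-2 on ethanol (0.17), HIF1a-1 on methanol (-0.013) and ethanol (0.013) and SFTPC-1 on ethanol (0.22). SFTPC-1 on ethanol also turned with quantile normalization (0.028) and cyclic loess (0.048), AbcA3-2 on ethanol with normexp (0.034) and CC10-2 on methanol with normexp (-0.054). Taking each gene's brightest probe turned AQP5-2 on methanol (0.082), AbcA3-2 on ethanol (0.10) and MUC1-1 on ethanol (-0.50). The PFOA and BPA arrays left out in turn, chosen after seeing the data, gave 24 to 41 of the 63 features lower on ethanol with PFOA below BPA, turning without PFOA titled 0.1 (36) and without BPA 0.1 (41), 28 to 42 of the 52 lower on methanol, 7 to 8 of the 8 higher on methanol and 12 to 15 of the 22 higher on ethanol; without both arrays of widest spot spread it was 38 of the 63. Signal near background limits the dim features. No paired analysis was possible because the labels carry no replicate numbers and each condition has 1 array.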

Other observations

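A few features were low on arrays of different vehicles at once, a pattern counted after the values were seen and not tested. On methanol and BPA 1, which lie on different slides, 6 of 17713 features read at least 2-fold below medium, ethanol, PFOA titled 1 and BPA 0.1 together, and 0 read above them. All 6 had 2 spots: Contig-c375-1, Contig-c10103-1, Contig-c9174-1, Contig-c17911-1, Contig-c15002-1 and Contig-c9804-1. Contig-c375-1 read 104 on medium, 7.29 on methanol, 95.8 on PFOA titled 1, 72.0 on ethanol, 73.7 at BPA 0.1 and 17.7 at BPA 1, with 7.11 on PFOA titled 0.1 and 44.2 at BPA 100. Contig-c9174-1 read 53.9, 2.03, 49.04, 37.99, 40.3 and 12.3 on the same 6 arrays. PFOA titled 0.1 and BPA 100 were left out of the pattern, and some of these features were low there too. In that order Contig-c10103-1 read 6.26 and 22.9, Contig-c9804-1 7.42 and 13.7 and Contig-c15002-1 33.8 and 98.1. Contig-c9174-1 read 23.7 and 53.0 and Contig-c17911-1 13.2 and 13.1.

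On ethanol and BPA 0.1, 10 of 17667 features read at least 2-fold below medium, methanol, PFOA titled 1 and BPA 1 together, and 0 above them, 8 of the 10 with 2 spots. Contig-c172-1 read 30.01 on ethanol and 29.8 at BPA 0.1, but 130 on medium, 104 on methanol, 110 on PFOA titled 1 and 72.7 at BPA 1. Contig-c4362-1 read 11.5 and 11.6, against 47.9, 38.2, 46.2 and 35.5. PFOA titled 0.1 and BPA 100 were again left out of the pattern. There Contig-c172-1 read 40.2 and 54.3 and Contig-c4362-1 16.4 and 28.0.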
